A study of Mus musculus with 7 samples.

Results

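Wild-type Ago2 was set against 5 Ago2 mutants as a group, and the miRNAs and hairpin arms for which wild type lay above or below every mutant were listed. The comparison used 6 of the 7 libraries of the study: K566A, Q548A, R792A_C793A, GKT_GKGT, PGKTP_AAAAA, which are the 5 mutants, and wild type. The remaining library, an empty control, is given beside values only. All came from embryonic stem cells of the mouse, grown with leukemia inhibitory factor on gelatin. The small RNAs were collected with an antibody to the Flag tag of the Ago2 protein, and each genotype had 1 library. The labels give the empty library as a control and do not say what it expressed. The labels give neither the state of the cells' own Argonaute genes nor whether a line was 1 clone. The counts do not cover the Ago2 transgene, so the genotype labels could not be checked from them.

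Ago2 is an Argonaute, the protein that takes a small-RNA duplex cut from a hairpin precursor, keeps 1 strand as its guide and discards the other. The guide's 5' end sits in a pocket between the MID and PIWI domains, and its seed, bases 2 to 8, reads target mRNAs. The K566A and Q548A changes replace MID residues that hold the 5' phosphate, and R792A_C793A changes the PIWI side of that pocket. GKT_GKGT and PGKTP_AAAAA spell residue changes in a MID loop next to the first base of the guide; Ago2 is known to favour U or A there over C or G. The series title puts strand choice, called asymmetry, at the centre of the study.

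The total counts, each mature sequence counted once, ran from 14914048 (K566A) to 94700428 (Q548A) in the mutants and stood at 94842507 in wild type. The empty control had 33461 counts. With 1 library per genotype there is no replicate, and the 5 mutants are 5 genotypes, not replicates of 1 condition. An exact permutation test of 1 library against 5 could not give a one-sided p below 0.167, so no p-value is given. Levels are counts per 1000000 (CPM), and ratios carry exact conditional 95% intervals that cover counting error only. An effect that all mutants share and a trait of the single wild-type library cannot be told apart with these samples. The stem cell identity was visible in the miR-290 cluster, the most abundant miRNAs of such cells, which summed to between 592100 and 800000 CPM in the mutants and 777900 CPM in wild type.

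The table held 950 miRNAs once each mature name was counted once, of which 337 passed the minimum mean of 10 CPM over the 6 libraries and were tested. Of these 337, 21 (6.23%) were higher in every mutant than in wild type and 27 (8.01%) were lower in every mutant. Wild type lay within the range of the mutants for the other 289 (85.8%). By counting error, each of the 5 intervals lay past 1 for 17 of the higher miRNAs (5.04%) and 25 of the lower ones (7.42%). Past 1.5-fold in each mutant there were 1 higher miRNA (0.297%), miR-18b-5p, and 5 lower ones (1.48%), namely miR-380-5p, miR-666-5p, miR-423-3p, miR-294-5p and miR-293-5p. No miRNA passed 2-fold in each. With miR-292-5p left out of the totals the split past 1.5-fold was 3 higher and 3 lower. Scaled by the median of ratios instead, 2 were higher and 6 lower. That scaling shifted all log2 ratios by -0.84 (K566A), -0.36 (R792A_C793A), -0.10 (Q548A), 0.62 (PGKTP_AAAAA) and 0.18 (GKT_GKGT).

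The distance from wild type to the nearest mutant was small against the spread among the mutants themselves. For the 48 miRNAs outside the mutants the median gap was 0.23 on the log2 scale (1.18-fold), while the mutants spanned a median of 2.55. The gap exceeded the mutants' own span for 1 miRNA, miR-101b-3p. It had 60.8, 57.0, 52.0, 58.4 and 55.5 CPM in K566A, Q548A, R792A_C793A, GKT_GKGT and PGKTP_AAAAA, against 40.6 CPM in wild type. With median-of-ratios scaling, or with miR-292-5p left out of the totals, miR-101b-3p no longer lay outside. The nearest mutant was GKT_GKGT for 19 of the 48 and Q548A for 17. The mutants differed in how often they held an extreme place: K566A was the highest of the 6 libraries for 175 miRNAs and PGKTP_AAAAA the lowest for 129, while wild type was highest for 27 and lowest for 21. Scaled by the median of ratios, K566A was both the most frequent highest library (126) and the most frequent lowest one (111), PGKTP_AAAAA was highest for 45 and lowest for 41, and wild type was highest for 40 and lowest for 35.

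**Figure D1:**
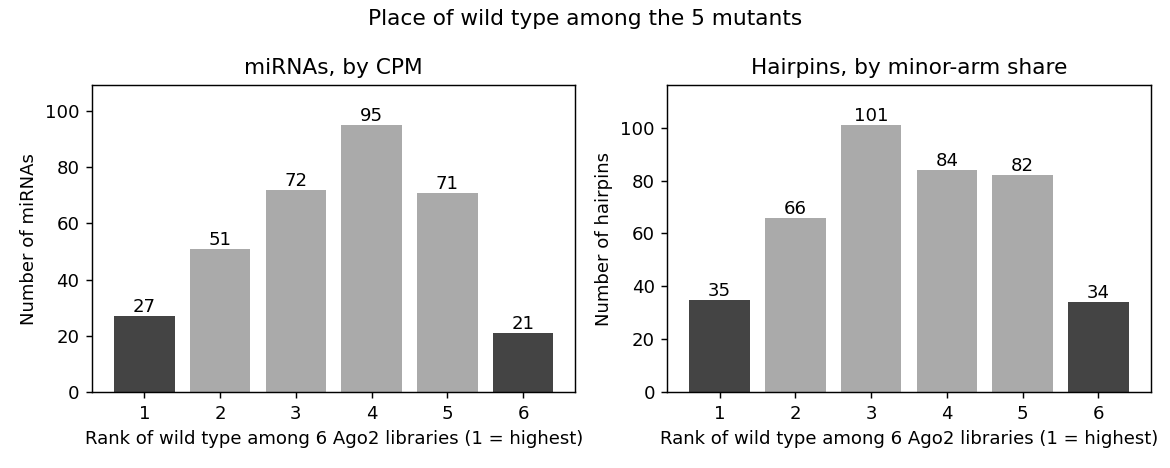
Number of tested miRNAs (left, by CPM) and hairpins (right, by the share of the minor arm) for which wild type had each rank among the 6 Ago2 libraries, 1 being the highest. Wild type was highest for 27 miRNAs and lowest for 21 (dark bars), and most often held rank 4, with 95 miRNAs.

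The miRNAs that carry the comparison are shown first by sequence (RefSeq, GRCm38.p6), 5' to 3', with the seed in capitals. The first set holds the 5 miRNAs at least 1.5-fold lower in each mutant by their intervals with CPM, and these begin with A. With the other scalings the set changes: miR-423-3p drops out under both and miR-293-5p without miR-292-5p in the totals, while median-of-ratios scaling adds miR-329-3p, which begins with A, and miR-667-3p, which begins with U.
miR-380-5p: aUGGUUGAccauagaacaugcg
miR-666-5p: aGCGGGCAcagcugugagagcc
miR-423-3p: aGCUCGGUcugaggccccucagu
miR-294-5p: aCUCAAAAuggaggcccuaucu
miR-293-5p: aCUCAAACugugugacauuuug

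The second set holds both arms of miR-18a and miR-18b and the other arm of miR-423, since these 3 hairpins had 1 arm higher and 1 arm lower in every mutant.
miR-18b-5p: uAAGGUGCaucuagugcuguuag
miR-18a-5p: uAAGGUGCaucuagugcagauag
miR-423-5p: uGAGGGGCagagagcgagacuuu
miR-18b-3p: uACUGCCCuaaaugccccuucu
miR-18a-3p: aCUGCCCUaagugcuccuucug

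The third set holds the 4 miRNAs of the miR-17 seed group that were higher in every mutant; their seed, AAAGUGC, is shared.
miR-17-5p: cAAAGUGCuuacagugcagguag
miR-20a-5p: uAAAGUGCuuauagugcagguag
miR-20b-5p: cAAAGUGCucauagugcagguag
miR-106a-5p: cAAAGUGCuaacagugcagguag

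The hairpin of miR-423, which lies within the gene Nsrp1 by its name in the GENCODE annotation, had the most abundant arms with opposite directions. It lies on chromosome 11 from 76891588 to 76891646 (mm9). The 3p arm had 2803, 3566, 2003, 3750 and 2909 CPM in K566A, Q548A, R792A_C793A, GKT_GKGT and PGKTP_AAAAA, against 6560 CPM in wild type. The 3p arm was lower in every mutant: the mutants averaged 3006 ± 693 CPM (SD, n = 5 genotypes), and the log2 ratio to wild type ran from -1.71 in R792A_C793A to -0.81 in GKT_GKGT (95% interval -0.82 to -0.80). Scaled by the median of ratios it was still lower in every mutant, but the nearest, PGKTP_AAAAA, lay at -0.55, and past 1.5-fold the call was lost under that scaling and with miR-292-5p left out of the totals. The 5p arm had 19030, 8126, 8865, 5201 and 5056 CPM in the same 5 mutants, against 3780 CPM in wild type. Here the nearest mutant was PGKTP_AAAAA, at a log2 ratio of 0.42 (0.41 to 0.43). The 3p arm was thus 12.8%, 30.5%, 18.4%, 41.9% and 36.5% of the hairpin's counts in K566A, Q548A, R792A_C793A, GKT_GKGT and PGKTP_AAAAA, and 63.45% in wild type (exact 95% interval 63.35 to 63.54). The more abundant arm was 5p in every mutant and 3p in wild type. In the empty control the 3p share was 23.0% (17.97 to 28.71, from 58 of 252 counts), within the range of the mutants.

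miR-18a and miR-18b are paralogs of the miR-17-92 and miR-106a-363 clusters, which are known to favour proliferation. miR-18b-5p had 2706, 484, 767, 619.7 and 469 CPM in K566A, Q548A, R792A_C793A, GKT_GKGT and PGKTP_AAAAA, against 290.3 CPM in wild type. miR-18a-5p had 414, 121, 181.9, 134 and 105 CPM in these mutants, against 77.8 CPM in wild type. Both guides were lowest in wild type, and the nearest mutant, PGKTP_AAAAA in both cases, was at log2 ratios of 0.69 (0.66 to 0.72) for miR-18b-5p and 0.43 (0.37 to 0.50) for miR-18a-5p. The opposite arm of miR-18a, miR-18a-3p, had 44.0, 36.8, 51.2, 60.7 and 27.8 CPM in the mutants, against 81.3 CPM in wild type. miR-18b-3p had 57.6, 76.7, 61.1, 43.8 and 18.3 CPM in the mutants, against 83.5 CPM in wild type. For both hairpins the 3p arm was highest in wild type, though for miR-18b-3p the gap to Q548A was only -0.12 on the log2 scale.

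Expressed as arm shares, the miR-18a 3p arm was 9.60%, 23.4%, 21.97%, 31.2% and 20.9% of the hairpin in K566A, Q548A, R792A_C793A, GKT_GKGT and PGKTP_AAAAA, and 51.1% in wild type. The miR-18b 3p arm was 2.08%, 13.7%, 7.37%, 6.60% and 3.76% in those mutants, and 22.3% in wild type. Wild type lay above every mutant in both, with a change in log2 odds of at most -1.21 (GKT_GKGT) for miR-18a and -0.86 (Q548A) for miR-18b. The loci are at chromosome 14, 115443089 to 115443151, and chromosome X, 50095519 to 50095580 (mm9). As annotated, miR-18a-3p begins with A and miR-18b-3p with U. The arms of these paralogs are similar but not identical, and the sources used here do not say how near matches were counted.

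Among 402 hairpins tested (a sum of at least 100 counts over the 6 libraries), the share of the minor arm was lower in every mutant for 35 (8.71%) and higher in every mutant for 34 (8.46%) by order alone. The minor arm is the one with the lower mean share over the 6 libraries. Every mutant held the highest and the lowest place more often than wild type. The numbers of highest and lowest places were 115 and 87 for K566A, 102 and 56 for GKT_GKGT, and 47 and 96 for Q548A. They were 58 and 75 for PGKTP_AAAAA and 45 and 54 for R792A_C793A. With each interval past 1, 21 hairpins were lower (5.22%) and 2 were higher (0.498%), and past 1.5-fold in odds 5 were lower (1.24%) and 0 higher (0.0%). Thinned to the total of K566A, the counts with each interval past 1 were 14 lower and 1 higher. In the hairpins past these limits the minor arm was therefore more often largest in wild type, a difference that order alone did not show and that turned to 32 lower and 43 higher by order with a pseudocount of 5. All intervals of a hairpin share its wild-type counts and are wider where these are small. The mutants are 5 of the 6 libraries that set the minor arm. Near balance, the arm largest in wild type is therefore the one more readily named minor. In miR-423, miR-18a and miR-1188 the arm named minor was the larger one in wild type, at 63.45%, 51.1% and 70.8%. The part that the intervals and the naming had in the difference was not tested. Besides miR-423, miR-18a and miR-18b, the 5 lower hairpins past 1.5-fold were miR-1188 and miR-467d.

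miR-1188 comes from the imprinted Dlk1-Dio3 region, inside the noncoding RNA Rian, at chromosome 12, 110850051 to 110850111 (mm9). Its 5p arm was 55.8%, 47.4%, 50.1%, 25.8% and 31.7% of the hairpin in K566A, Q548A, R792A_C793A, GKT_GKGT and PGKTP_AAAAA, and 70.8% in wild type (69.8 to 71.8). Wild type lay above every mutant, and both arms of this hairpin begin with U. miR-467d, a member of the repeat cluster in Sfmbt2, is scarce, and was named after its values were seen because its 3p arm averaged 3.30 CPM. That arm was 2.26%, 4.63%, 4.11%, 4.42% and 2.85% of the hairpin in the mutants, and 9.15% in wild type (8.33 to 10.01). The wild-type interval did not overlap that of any mutant.

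**Figure D2:**
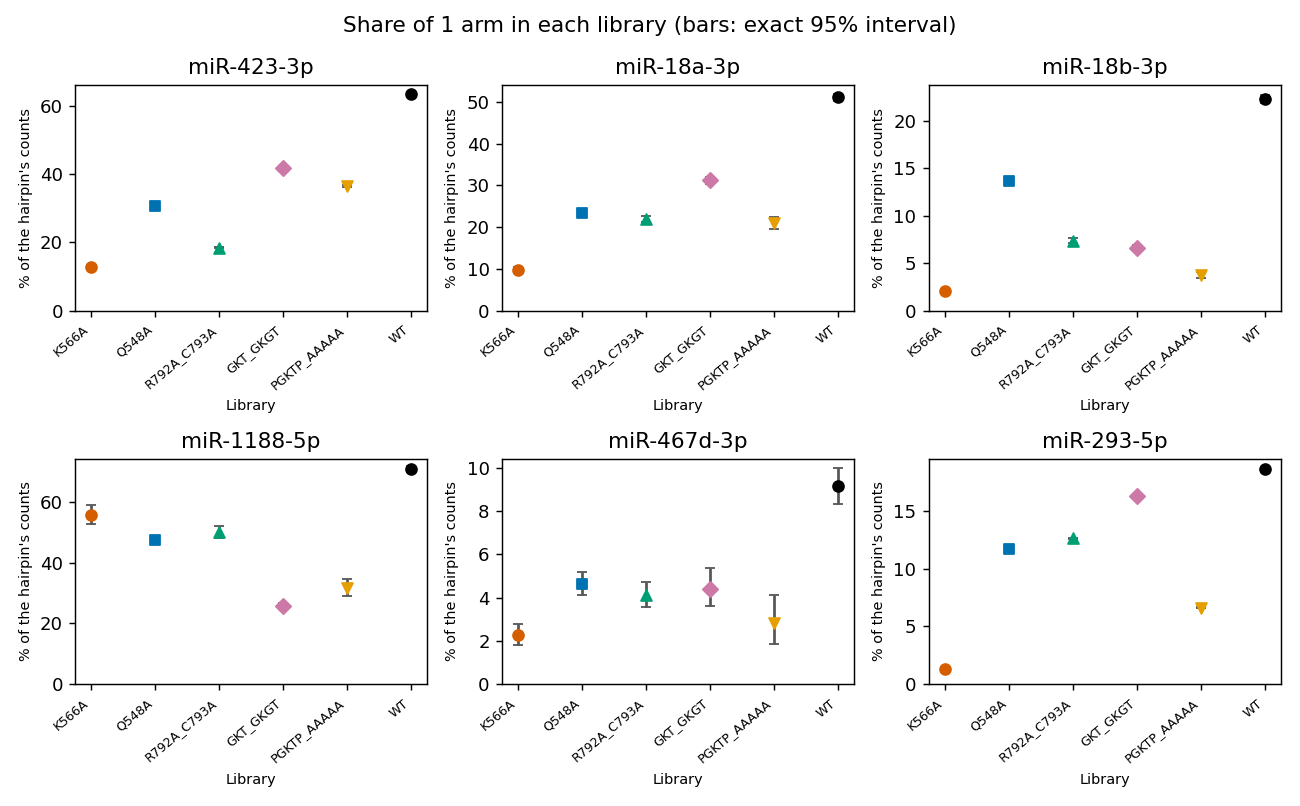
Share of the hairpin's counts on the arm named above each panel, in percent, in the 5 mutant libraries and in wild type (black), with exact 95% intervals. The wild-type share was above every mutant in these 6 hairpins, for miR-423-3p for example 12.8% to 41.9% in the mutants against 63.45% in wild type.

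The 2 hairpins with a higher minor-arm share in every mutant by their intervals were miR-130b and miR-466a. The 3p arm of miR-130b, the usual guide of the miR-130/301 family, was 17.2%, 3.31%, 16.5%, 6.57% and 4.44% in K566A, Q548A, R792A_C793A, GKT_GKGT and PGKTP_AAAAA, and 2.16% in wild type (2.05 to 2.27). Its 5p arm was the more abundant one in all 6 libraries. That 5p arm, miR-130b-5p, had 607, 636, 219.9, 253 and 279.8 CPM in the mutants, against 724 CPM in wild type, so it was also lower in every mutant.

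The miR-290 cluster had 3 of 13 tested members lower in every mutant and none higher (23.1% lower, against 8.01% of all miRNAs). All 3 were 5p arms: miR-293-5p, miR-294-5p and miR-295-5p. miR-293-5p, at chromosome 7, 3220357 to 3220378 (mm9), had 2476, 7179, 7371, 6739 and 3371 CPM in K566A, Q548A, R792A_C793A, GKT_GKGT and PGKTP_AAAAA, against 12280 CPM in wild type. It was the sole one of the 10 most abundant wild-type miRNAs for which wild type stood outside the mutants, and the nearest mutant, R792A_C793A, was at a log2 ratio of -0.74 (-0.74 to -0.73). miR-294-5p, at 3220656 to 3220677 on the same chromosome, had its highest mutant level in Q548A, at a log2 ratio of -0.77, and 137, 114, 97.1 and 45.1 CPM in K566A, R792A_C793A, GKT_GKGT and PGKTP_AAAAA, against 309 CPM in wild type. For miR-295-5p the gap to K566A was -0.004, within counting error. The 5p arm also held a lower share of its hairpin in every mutant than in wild type. It was 1.33%, 11.7%, 12.6%, 16.3% and 6.63% for miR-293, against 18.6% in wild type. For miR-294 it was 0.148%, 0.870%, 0.349%, 1.19% and 0.294% in the mutants, against 1.53% in wild type. The guides of these hairpins, which bear the stem-cell seed AAGUGCU in miR-294-3p and miR-295-3p, lay within the range of the mutants.

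Of the other 9 abundant miRNAs wild type had rank 2 from the highest for miR-433-3p, rank 3 for miR-293-3p, miR-292-3p, miR-183-5p and miR-543-3p, and rank 4 for miR-292-5p, miR-294-3p, miR-99b-5p and miR-127-3p. miR-292-5p, the most abundant, had 217100, 652700, 572900, 705000 and 695500 CPM in K566A, Q548A, R792A_C793A, GKT_GKGT and PGKTP_AAAAA, against 636800 CPM in wild type. The mutants thus lay on both sides of wild type for the miRNA that made up most of the counts.

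miR-17-92 and its paralogs had 7 of 24 tested members higher in every mutant and 2 lower (29.2% and 8.33%, against 6.23% and 8.01% of all tested miRNAs), so the lower share was about that of all. The higher ones were miR-17-5p, miR-18a-5p, miR-18b-5p, miR-19a-3p, miR-20a-5p, miR-20b-5p and miR-106a-5p, all guides, and the lower ones were miR-18a-3p and miR-18b-3p, the opposite arms. With median-of-ratios scaling there were 8 higher and 2 lower, where all 337 had 35 and 40, and with miR-292-5p left out of the totals 8 and 3, where all had 37 and 34. The 24 members summed to between 17570 and 57970 CPM in the mutants and 15560 CPM in wild type, so the sum was higher in every mutant. In GKT_GKGT, however, 7990 of the 21510 CPM were miR-106b-3p alone. That arm had 1507 CPM in wild type and 195.3 CPM in Q548A, so it was not itself higher in every mutant. miR-20b-5p had 4965, 1348, 1513, 948 and 1047 CPM in K566A, Q548A, R792A_C793A, GKT_GKGT and PGKTP_AAAAA, against 804 CPM in wild type. miR-20a-5p had 6090, 1226, 1712, 1504 and 1171 CPM in the mutants, against 1013 CPM in wild type. K566A stood well above the others in both, and the remaining mutants were within about 1 log2 unit of wild type. Of 6 tested miRNAs with the seed AAAGUGC, 4 were higher in every mutant and none lower, the exceptions being miR-93-5p and miR-106b-5p of the miR-106b-25 cluster. miR-17-5p was closest to wild type, with a log2 gap of 0.03, and its interval did not exclude 1. The A-first 3p arm was 1.56%, 3.96%, 1.799%, 1.24% and 0.826% of miR-17 in the mutants, against 4.38% in wild type. For miR-20b it was between 0.0153% (4 counts, PGKTP_AAAAA) and 0.0689% (Q548A) in the mutants, against 0.0957% in wild type, and the intervals of the shares in Q548A and R792A_C793A overlapped that of wild type.

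The Dlk1-Dio3 cluster, an imprinted cluster on chromosome 12 that is transcribed from the maternal allele, had 8 of 63 tested members lower in every mutant and 1 higher (12.7% and 1.59%, against 8.01% and 6.23% of all tested miRNAs). Scaled by the median of ratios, 12 were lower and 1 higher (40 and 35 of all 337), and with miR-292-5p left out of the totals 9 and 1 (34 and 37 of all). The median over members of the mean log2 ratio of mutant to wild type was -0.55, against 0.14 over all tested miRNAs. The members' median log2 ratio was -1.62 for PGKTP_AAAAA, -0.62 for K566A, -0.45 for GKT_GKGT, 0.07 for R792A_C793A and 0.03 for Q548A. Over all tested miRNAs the medians were -0.545, 0.92, -0.29, 0.43 and 0.07 in the same order. The members' median was thus below that of all in each mutant, by little in Q548A and by most in K566A. miR-380-5p, at 110950016 to 110950037 (mm9), had 30.2, 23.3, 31.9, 29.5 and 4.90 CPM in K566A, Q548A, R792A_C793A, GKT_GKGT and PGKTP_AAAAA, against 64.2 CPM in wild type. It had the largest gap of all tested miRNAs, at a log2 ratio of -1.01 (-1.09 to -0.94) for the nearest mutant, R792A_C793A. miR-666-5p, at 110955313 to 110955334, had 8.25, 118, 140.5, 63.5 and 12.6 CPM in the mutants, against 272.5 CPM in wild type. K566A and PGKTP_AAAAA were far below the other mutants there, but the nearest one still lay at -0.96 (-0.99 to -0.92). The other lower members were miR-667-3p, miR-329-3p, miR-370-3p, miR-1188-5p, miR-668-3p and miR-409-3p, with gaps from -0.61 for miR-667-3p to -0.03 for miR-409-3p. miR-409-3p no longer lay outside under either of the other scalings, nor miR-1188-5p with miR-292-5p left out of the totals. The 1 higher member, miR-299-3p, overlaps another locus and had a gap of 0.02, within counting error.

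Fibroblast markers had 3 of 11 tested members higher in every mutant (27.3%, against 6.23% of all tested miRNAs) and none lower: miR-21-5p, miR-196a-5p and miR-10b-5p. miR-21-5p, abundant in mesenchymal cells, had 618, 95.2, 138, 77.3 and 139 CPM in K566A, Q548A, R792A_C793A, GKT_GKGT and PGKTP_AAAAA, against 65.9 CPM in wild type. Of 24 names of this list in the table, 1 was at 0 in the 6 libraries, and the tested members summed to between 1488 and 9527 CPM in the mutants and 2064 CPM in wild type, so the summed level did not separate the groups. Of 6 tested markers of differentiated tissues 1 was higher in every mutant, namely miR-126-3p, an endothelial miRNA borne by Egfl7. With either of the other scalings 4 of the 11 fibroblast and 4 of the 6 differentiated-tissue markers were higher, where the count over all 337 miRNAs was also larger, at 35 with the median of ratios and 37 without miR-292-5p, against 21. Of 24 names of that list 7 were at 0, among them both arms of miR-223, and the tested members summed to between 3924 and 26520 CPM in the mutants and 4146 CPM in wild type. Whether other cell types had a part in these results was not tested.

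Other lists had few members outside the mutants. Of 5 tested members of the miR-183 cluster miR-182-5p was higher in every mutant, and of 10 of the miR-30 family miR-30c-2-3p. Neither miR-182-5p nor miR-30c-2-3p stayed outside with median-of-ratios scaling. Of 6 Dicer- or Drosha-independent miRNAs miR-668-3p, which the Dlk1-Dio3 list also holds, was lower (16.7%, against 8.01% of all). With each of the other scalings 3 were lower, where all 337 had 40 with the median of ratios and 34 without miR-292-5p. None of 9 let-7 and miR-98 members, 6 miR-200 members, 6 miR-15/16 members, 3 miR-302 cluster members or 14 Sfmbt2 cluster members lay outside. With median-of-ratios scaling 2 members each of the miR-15/16, miR-302 and Sfmbt2 lists were higher in every mutant.

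Outside these lists, the lower miRNAs above 100 CPM on average were miR-744-5p, miR-298-5p, miR-328-3p, miR-130b-5p, miR-149-5p, miR-501-3p and miR-3074-5p, besides miR-423-3p. Of these miR-298-5p did not stay outside with miR-292-5p left out of the totals. miR-3074-5p, with 296.9 CPM in wild type, overlaps the locus of miR-24-3p, which had 1936 CPM there. The counts of miR-3074-5p are therefore uncertain. miR-328-3p had 109, 729, 669, 997 and 666 CPM in K566A, Q548A, R792A_C793A, GKT_GKGT and PGKTP_AAAAA, against 1389 CPM in wild type. miR-501-3p, from an intron-borne group in Clcn5 on the X chromosome, had 23.3, 208, 121, 195 and 51.4 CPM in the mutants, against 285 CPM in wild type. K566A was the lowest library for both, while GKT_GKGT or Q548A came closest to wild type. Higher in every mutant were also miR-335-3p, borne by the imprinted gene Mest, miR-708-5p, borne by Tenm4, miR-191-5p and miR-219-1-3p. miR-191-5p, with a log2 gap of 0.03, did not stay outside under either of the other scalings. miR-335-3p had 8448, 1476, 1738, 1164 and 1515 CPM in the mutants, against 983 CPM in wild type. miR-219-1-3p had 1522, 79.2, 123, 88.8 and 77.2 CPM in the mutants, against 60.1 CPM in wild type. In both K566A stood far above the rest.

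**Figure D3:**
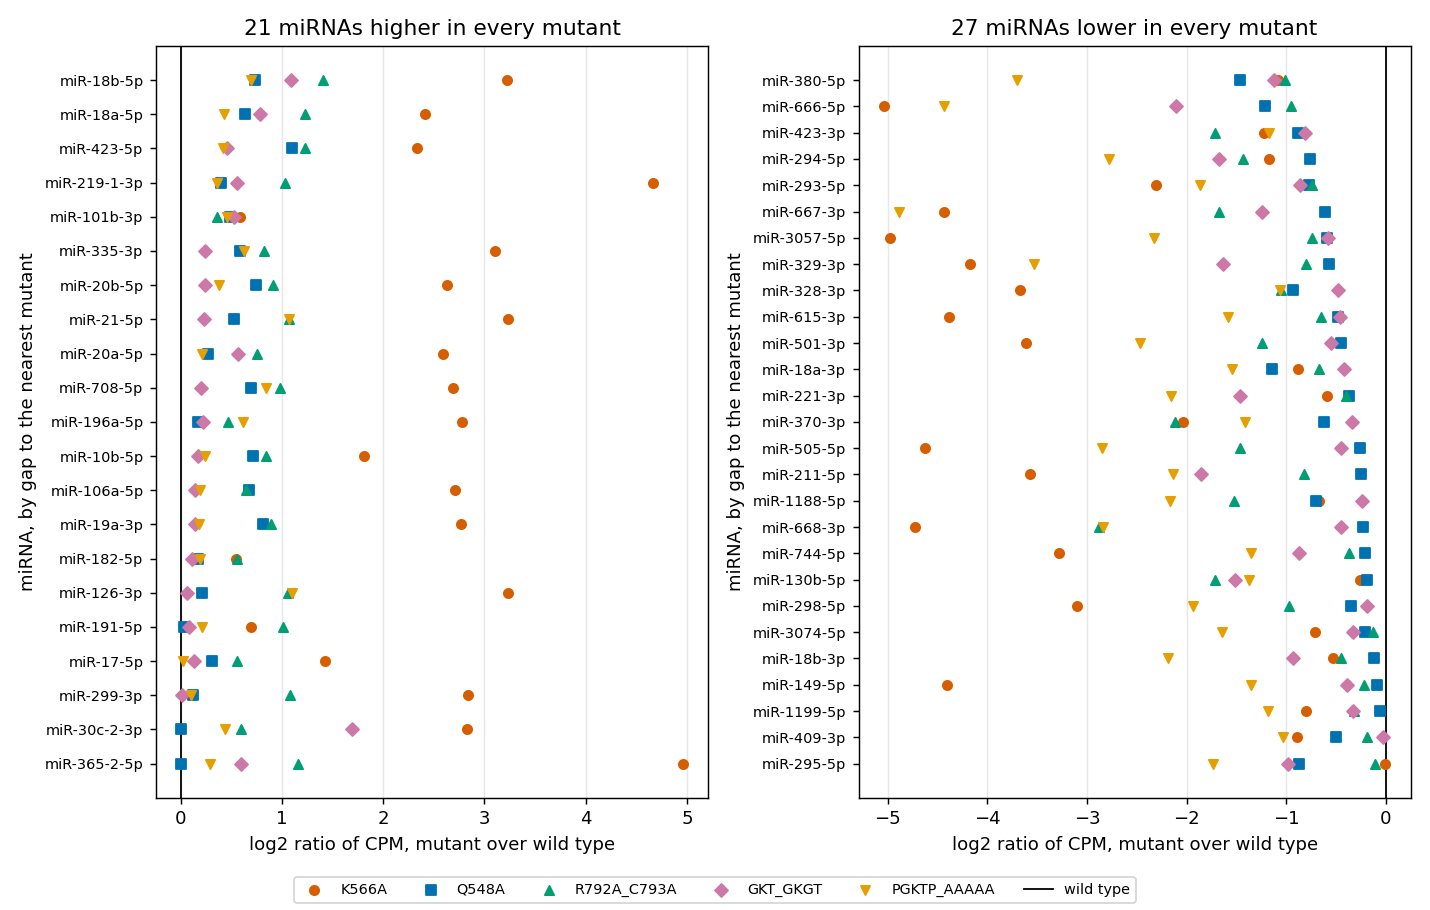
The log2 ratio of CPM of each mutant over wild type (x axis, wild type at the line at 0) for the 21 miRNAs higher and the 27 lower in every mutant, ordered by the gap to the nearest mutant. K566A is the farthest mutant in most rows, and the nearest point lies at 0.69 for miR-18b-5p and at -1.01 for miR-380-5p.

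The first base of the mature miRNA, which the MID loop reads, was known for 287 of the 337 tested miRNAs. Of 76 A-first miRNAs 12 were lower in every mutant and 3 higher (15.8% and 3.95%), and of 26 G-first miRNAs 5 were lower and none higher (19.2% and 0.0%). Of 55 C-first miRNAs none was lower and 5 were higher (0.0% and 9.09%), while of 130 U-first miRNAs 9 were lower and 12 higher (6.92% and 9.23%). Of all tested miRNAs 8.01% were lower and 6.23% higher. Under median-of-ratios scaling 18 were lower and 4 higher for A, 4 and 0 for G, 0 and 6 for C, and 15 and 20 for U, out of 40 and 35 in all. With miR-292-5p left out of the totals they were 17 and 4 for A, 3 and 0 for G, 0 and 7 for C, and 11 and 20 for U, out of 34 and 37 in all. Under each of the 3 scalings A-first miRNAs were thus more often lower than higher in every mutant, and no C-first miRNA was lower in every mutant. C-first miRNAs had a median log2 ratio of 0.89 (K566A), 0.86 (GKT_GKGT), 0.47 (R792A_C793A), 0.21 (PGKTP_AAAAA) and -0.34 (Q548A). For A-first miRNAs the medians were 0.37, -0.61, 0.32, -1.22 and -0.05 in the same order. For all tested miRNAs they were 0.92, -0.29, 0.43, -0.545 and 0.07. By sign, neither first base thus moved the same way in each mutant. Against the medians of all tested miRNAs, A-first miRNAs lay lower in each mutant. C-first miRNAs lay lower than all in K566A and Q548A and higher in the other mutants.

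**Figure D4:**
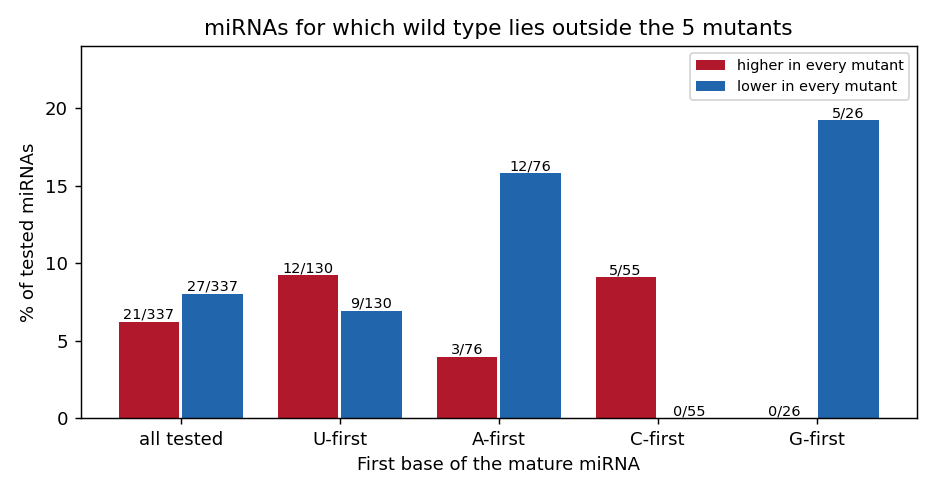
Percent of tested miRNAs that were higher (red) or lower (blue) in every mutant than in wild type, for all tested miRNAs and by the first base of the mature sequence, with the counts above the bars. The lower share was 15.8% for A-first and 19.2% for G-first miRNAs, against 8.01% of all.

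The lower miRNAs also had more G and C. Their median GC content was 54.5% (26 with a sequence), against 47.8% for the higher ones (20) and 48.0% for all (287). Among miRNAs above the median GC content 18 of 142 were lower in every mutant and 6 higher, and among the others 8 of 145 were lower and 14 higher. The A-first miRNAs were lower at a like rate in both, 6 of 36 and 6 of 40. The U-first miRNAs were lower in 8 of 46 above the median GC content and in 1 of 84 at or below it. Among U-first miRNAs the lower ones were thus nearly all GC-rich.

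Arms of 1 hairpin were compared by first base, a ratio from which library size cancels. For scale, the minor-arm share was higher in every mutant in 8.46% of all 402 hairpins and lower in 8.71%, by order alone. Those shares go by minor arm, not by first base, and had no minimum of counts on each arm, so the scale is rough. Where the arms began with C and A (27 hairpins), the C-first arm over its A-first partner was higher in every mutant in 6 and lower in none. These were miR-17, miR-20b, miR-106a, miR-130b, miR-193b and miR-540, and the intervals of miR-17, miR-20b, miR-130b and miR-193b each lay past 1. The A-first 3p arm of miR-193b was 13.6%, 44.1%, 33.3%, 6.16% and 10.8% of the hairpin in K566A, Q548A, R792A_C793A, GKT_GKGT and PGKTP_AAAAA, against 53.6% in wild type (50.1 to 57.0). Where they began with A and U (55 hairpins), the ratio of the A-first to the U-first arm was lower in every mutant in 7 and higher in 1, miR-344. The 7 were miR-423, miR-18a, miR-20a, miR-27b, miR-125b-1, miR-132 and let-7g, of which 5, let-7g among them, had each interval past 1. The A-first arm of let-7g was scarce, with 0, 25, 12, 8 and 0 counts in K566A, Q548A, R792A_C793A, GKT_GKGT and PGKTP_AAAAA, and 61 in wild type. The A-first 3p arm of miR-125b-1 was 13.5%, 9.71%, 8.41%, 11.8% and 8.97% of the hairpin in the mutants, against 21.3% in wild type (19.99 to 22.55). Against U-first arms, C-first arms had 1 hairpin each way of 53, and G-first arms 1 lower and none higher of 32. Over all 55 A and U hairpins the median log2 ratio to wild type did not have the same sign in each mutant: it was -0.24 for K566A, -0.70 for Q548A and -0.28 for PGKTP_AAAAA, but 0.22 for R792A_C793A and 0.14 for GKT_GKGT. For C-first over U-first arms the median was 2.42 in GKT_GKGT, 0.62 in PGKTP_AAAAA, 0.038 in K566A, 0.015 in R792A_C793A and -0.80 in Q548A. For C-first over A-first arms it was positive in every mutant, from 0.10 in Q548A to 1.86 in GKT_GKGT.

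The same hairpins can be counted by the first base of the minor arm, which is a recount and no separate support. It was A in 12 of the 17 hairpins with a known base among the 21 whose minor-arm share was lower in every mutant by its intervals (70.6%), against 114 of 324 among all tested hairpins (35.2%). By order alone it was A in 17 of 28 (60.7%) of the lower and in 8 of 25 (32.0%) of the higher hairpins. These hairpins include paralogs such as miR-17, miR-20b, miR-18a and miR-293 with miR-294, which are similar in sequence.

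The counts of miRNAs outside the mutants depended on which mutant was included. A call needs every mutant on the same side, so leaving 1 out could keep or raise a count but not lower it. Without Q548A, the mutant whose levels were closest to wild type (median absolute log2 ratio 0.31), 8 miRNAs were higher and 12 lower past 1.5-fold in each remaining mutant, and 15 hairpins were lower and 8 higher in minor-arm share. Without GKT_GKGT 2 miRNAs were higher and 13 lower, and 10 hairpins were lower. Without K566A, the mutant least like wild type (1.77), 1 was higher and 5 lower, and 8 hairpins were lower. Without PGKTP_AAAAA 2 were higher and 5 lower.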

How the data were processed

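Immunoprecipitates of tagged Ago2 were sequenced by Illumina after the NEBNext small RNA preparation, per the labels' protocols. The authors deposited whole-number counts, without normalization, at 1078 loci of mature miRNAs. CASAVA 1.8.2, TopHat2 2.0.9 and the build mm9 are named, per the submitters' processing notes; no source used here gives the counting program, the treatment of reads with several matches or the use of strand.

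The members and lists were chosen with earlier results of these data known. Each mature name was counted once by its highest locus, since 55 of 64 names at several loci had counts equal within 1% or 3 counts, and 9 names with counts equal to another's (a sum of at least 200) were merged, which left 950. CPM used the total as library size. A miRNA with a mean of at least 10 CPM was called when all 5 ratios of mutant to wild type had exact conditional 95% intervals past 1.5 on the same side. Arms 5p and 3p sharing a name, with starts within 150 nt, formed a hairpin, whose odds ratio was treated likewise (Woolf's interval where all 4 counts reached 500). Log2 ratios used a pseudocount of 0.5. Hairpins compared by first base had at least 10 counts on each arm over the 6 libraries.

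Named were up to 10 called miRNAs in each direction with a mean of at least 100 CPM, up to 8 called hairpins in each direction whose minor arm reached 10 CPM, the 10 most abundant wild-type miRNAs, and up to 4 called members of each list; miRNAs outside the mutants by order are named by the rule of the comparison itself, and further ones, miR-380-5p and miR-467d among them, after their values were seen. Lists were read for 13 groups. Sequences came from RefSeq (GRCm38.p6), matched by name and length for 287 of 337 miRNAs, 14 of them after adding an a to an older name; 11 tested miRNAs overlap another locus and are uncertain. A count of 0 allows 3 counts, which is 0.201 CPM in K566A, 0.0316 CPM in wild type and 89.7 CPM in the empty control. The reads carry no molecular identifiers. Python 3.11.15, scipy 1.17.1 and pandas 2.3.3 were used, and the calling steps were tested on simulated data.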

Additional observations from a re-analysis of the deposited data

How the results depend on the processing

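The main counts were 1 miRNA higher and 5 lower in every mutant past 1.5-fold, and 0 hairpins higher and 5 lower. With median-of-ratios scaling 2 miRNAs were higher and 6 lower, and with miR-292-5p left out of the totals 3 and 3: miR-423-3p was lost under both, miR-293-5p under the second, and miR-423-5p was gained under both. By order alone the counts were 21 and 27, by intervals past 1 they were 17 and 25, and past 2 they were 0 and 0; with median-of-ratios scaling, added after the data were seen, order gave 35 and 40 and intervals past 1 gave 25 and 35. Of the miRNAs outside by order, 16 higher and 23 lower ones stayed outside under all 3 scalings, and none turned to the other side. Leaving out 1 mutant at a time, which by the rule cannot lower a count, gave 1 to 8 higher and 5 to 13 lower miRNAs. For hairpins it gave 0 to 8 higher and 5 to 15 lower. For hairpins, order alone gave 34 higher and 35 lower, a pseudocount of 5 gave 43 and 32, intervals past 1 gave 2 and 21 (1 and 14 after thinning, added after the data were seen), and intervals past 2 gave 0 and 2. The filters, the merging of names, the use of every locus, the definition of the minor arm and thinning at 1.5-fold kept each count within 1.5 times. The causes were not tested. No paired analysis was possible because each genotype has 1 library. Depth limits the low arms: K566A and PGKTP_AAAAA had the smallest totals.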

Other observations

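The library labelled empty, a control, belongs to no comparison above. Of the 48 miRNAs outside the mutants by order, 20 had at least 10 counts in it. For 10 of these 20 its exact 95% interval lay wholly on the mutants' side of the wild-type level. For the other 10 it included the wild-type level, and for none did it lie beyond wild type. The 48 were chosen with wild type at an extreme, so a further library is likelier to lie on the mutants' side than beyond wild type. The same counts over all tested miRNAs were not made, and no conclusion is drawn from these. miR-423-3p stood at 1733 CPM in the empty control (1316 to 2241, 58 counts), against 2003 to 3750 CPM in the mutants and 6560 CPM in wild type. miR-293-5p stood at 6605 CPM (5763 to 7535), against 2476 to 7371 CPM in the mutants and 12280 CPM in wild type. miR-423-5p stood at 5798 CPM (5011 to 6674), against 5056 to 19030 CPM in the mutants and 3780 CPM in wild type. miR-370-3p of the Dlk1-Dio3 cluster stood at 3407 CPM (2810 to 4093), against 1508 to 5192 CPM in the mutants and 6551 CPM in wild type. miR-335-3p stood at 1972 CPM (1525 to 2509), against 1164 to 8448 CPM in the mutants and 983 CPM in wild type. The miRNAs above were from the 10 on the mutants' side, those below from the other 10. miR-130b-5p stood at 836.8 CPM (556 to 1209), against 219.9 to 636 CPM in the mutants and 724.4 CPM in wild type. miR-149-5p stood at 537.9 CPM (318.8 to 850.2), against 20.25 to 405.1 CPM in the mutants and 429.4 CPM in wild type. miR-191-5p stood at 8189 CPM (7248 to 9218), against 8224 to 16180 CPM in the mutants and 8041 CPM in wild type.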
